A study of Mus musculus with 8 samples.

Results

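Of the 25965 genes in the deposited lung RNA-seq values, 9 were followed here as markers of the alveolar type I cell: Ager, Hopx, Pdpn, Aqp5, Cav1, Rtkn2, Clic5, Akap5 and Emp2. They were chosen by name from their known expression in that cell, with earlier results of these data known. All 9 were measured in all 8 libraries. RNA from whole lungs was sequenced from Wfdc2 +/+ mice and from Wfdc2 GFP/GFP mice, which lack the secreted protein WFDC2 of the whey acidic protein family because an IRES-EGFP knock-in cassette replaced part of exon 1 and all of exon 2 on both alleles. The allele was made in TT2 embryonic stem cells and is carried by every cell of the animal, with no Cre driver restricting the loss to one tissue. Lungs were taken before birth at embryonic day E18.5 and after birth at postnatal day P1.5, and the 4 groups, E18.5 Wfdc2 +/+, E18.5 Wfdc2 GFP/GFP, P1.5 Wfdc2 +/+ and P1.5 Wfdc2 GFP/GFP, had 2 animals each. The comparisons ask whether the transcripts of the gas-exchange cell differ between genotypes at each stage, and between stages in each genotype.

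Alveolar type I cells are very thin, flat cells that cover most of the alveolar surface and carry gas exchange. They arise in late gestation together with the cuboidal type II cells, which make surfactant and can give rise to type I cells after injury. Several type I markers are also made elsewhere: Cav1 and Emp2 in endothelium, Pdpn in lymphatic endothelium and mesothelium, Hopx in heart muscle, and Aqp5 in airway glands. In whole-lung RNA, fewer cells of a type and less RNA per cell cannot be told apart.

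The libraries held 19457647 to 37209333 reads, and a detection limit of 3 reads stood for 0.0806 to 0.154 RPM (reads scaled to the library total). No marker came near that limit, with between 380 reads (Aqp5) and 142041 reads (Ager) in a library. Wfdc2 itself had 8038 to 32845 reads in the Wfdc2 +/+ libraries and 0 to 12 in the Wfdc2 GFP/GFP libraries, as the genotype labels state. Among the E18.5 libraries, Wfdc2 GFP/GFP replicate 1 stood apart. It had the lowest value of the 4 E18.5 libraries for 7 of the 9 type I markers, for 7 of 8 type II markers and for 7 of 10 blood endothelial markers, against 35.0% of the 15627 genes tested. Genotype differences of the markers at E18.5 are given with and without it. Stage changes in Wfdc2 GFP/GFP include it unless said otherwise. The same library was also low for Scgb1a1, the club cell secretory protein, at 3.29 log2 RPKM against 7.14 to 7.75 in the other E18.5 libraries, and for the alpha-globin gene Hba-a1, at 7.45 against 9.88 to 10.14. The collagen gene Col1a1, at 6.37 against 5.73 to 6.12, and the fibroblast receptor gene Pdgfra, at 2.69 against 1.40 to 1.84, were highest there among the E18.5 libraries. Among the P1.5 libraries, Wfdc2 +/+ replicate 1 was the lowest for 5976 of the 15627 genes tested. This control library was the lowest for 9 of 10 blood endothelial, 3 of 3 smooth muscle and 3 of 3 leukocyte markers. For type I markers it was the lowest in 3 of 9, and for type II markers in 4 of 8. Its Col1a1 was at 3.52, against 6.41 in P1.5 Wfdc2 +/+ replicate 2. Genotype differences at P1.5 and stage changes in Wfdc2 +/+ include this library unless said otherwise. The replicate numbers also went with the sex-linked transcripts, since Xist had 4121 to 90980 reads in replicate 1 and 1 to 13 in replicate 2 of every group. Each group therefore held 1 library of each kind.

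All values below are log2 RPKM as deposited, where RPKM is RPM per kilobase of gene, unless a level per exon kilobase is named. The authors' kilobases count the whole span of a gene with its introns. Levels of the markers were therefore compared with each other only after dividing RPM by the length of the exons in the annotation. Summed levels of other gene lists, given further below, are in RPKM over the whole span. Per exon kilobase Ager had the highest mean in every group, from 628 ± 498 (SD, n = 2) in E18.5 Wfdc2 GFP/GFP to 2361 ± 712 in P1.5 Wfdc2 GFP/GFP. Hopx and Cav1 followed in both E18.5 groups, at 376 ± 8.86 and 361 ± 3.57 RPM per exon kilobase in E18.5 Wfdc2 +/+. Rtkn2 was the lowest in 3 groups, at 34.7 ± 4.38 in E18.5 Wfdc2 +/+, 20.9 ± 10.9 in E18.5 Wfdc2 GFP/GFP and 12.0 ± 0.0807 in P1.5 Wfdc2 GFP/GFP. In P1.5 Wfdc2 +/+ the lowest was Clic5, at 32.5 ± 15.96, and Rtkn2 was at 53.3 ± 1.67. In E18.5 Wfdc2 +/+ only the lowest pair of neighbours in this order, Aqp5 and Rtkn2, overlapped between libraries, whereas 6 of 8 neighbouring pairs overlapped in E18.5 Wfdc2 GFP/GFP, 5 of 8 in P1.5 Wfdc2 +/+ and 2 of 8 in P1.5 Wfdc2 GFP/GFP.

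**Figure D1:**
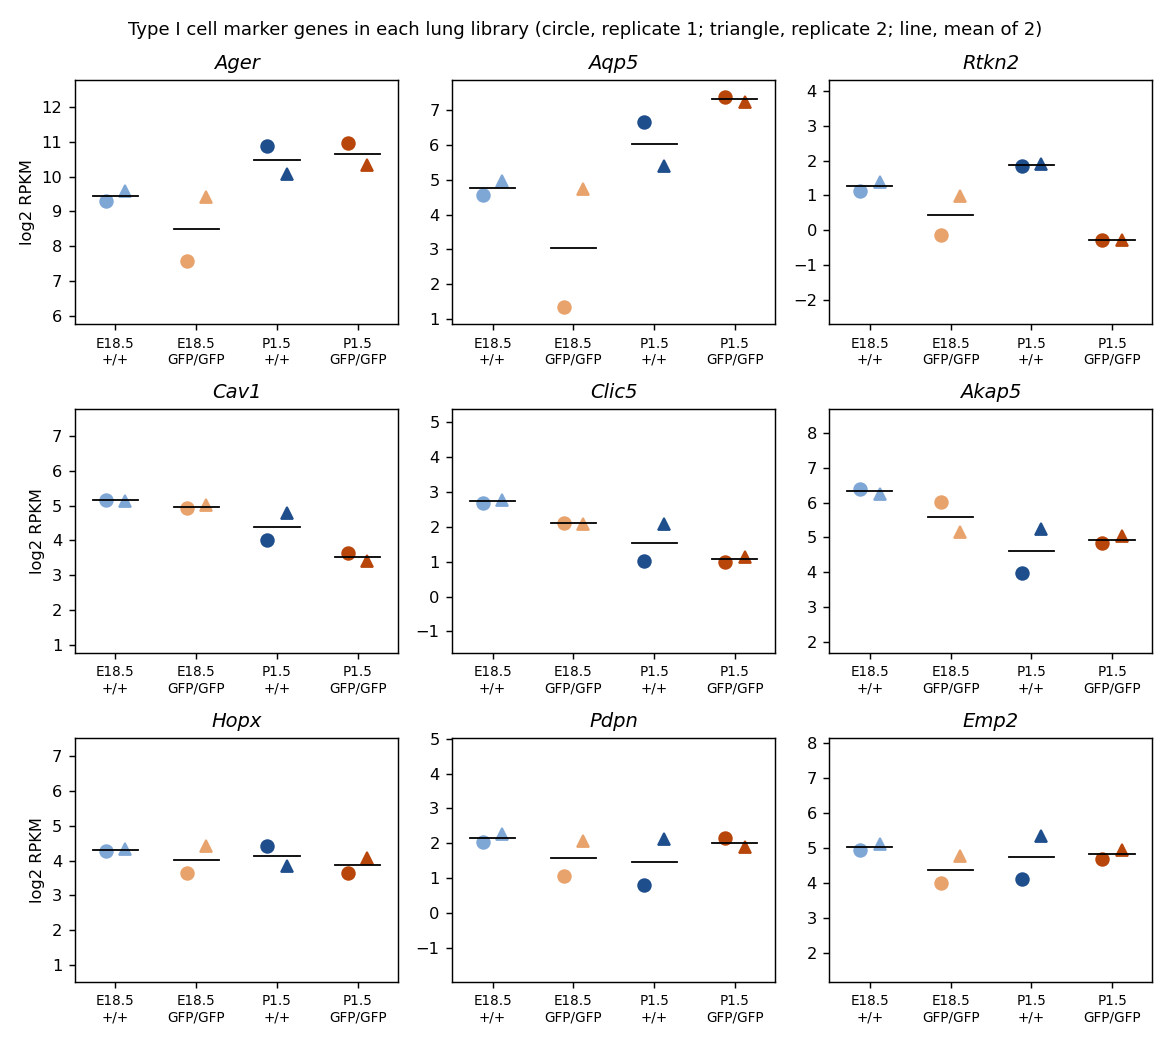
Log2 RPKM (vertical axis, each panel spanning the same range of log2 units) of the 9 type I marker genes in the 8 lung libraries, by stage and Wfdc2 genotype; circles are replicate 1, triangles replicate 2 and lines the mean of 2. Rtkn2 separates the genotypes at P1.5, with 1.85 and 1.91 in Wfdc2 +/+ against -0.28 and -0.27 in Wfdc2 GFP/GFP, and E18.5 Wfdc2 GFP/GFP replicate 1 is low for Aqp5, at 1.36, and for Ager, at 7.59.

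The 2 libraries of a group were not equally close for these genes. They also differed in the sex-linked transcripts, so spread between animals and any difference that goes with sex cannot be told apart. The median absolute difference between replicates over the 9 markers was 0.17 log2 units in E18.5 Wfdc2 +/+ and 0.23 in P1.5 Wfdc2 GFP/GFP, but 0.85 in E18.5 Wfdc2 GFP/GFP and 1.05 in P1.5 Wfdc2 +/+. Over all genes tested the same medians were 0.14, 0.38, 0.56 and 0.80. The spread in 2 of the groups was therefore as large as many of the differences between groups described next.

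At P1.5 the marker that stood farthest apart between genotypes was Rtkn2, a member of the rhotekin family expressed in type I cells (chr10:67979570-68059740, plus strand, mm10). At this stage Rtkn2 was read 6272 and 5875 times in the controls against 1530 and 1951 times in Wfdc2 GFP/GFP, or 1.85 and 1.91 against -0.28 and -0.27 log2 RPKM. Both Wfdc2 GFP/GFP libraries lay below both controls, and replicates differed by no more than 0.06. The fitted difference was -2.15 (SE 0.40, 95% confidence interval -3.08 to -1.23), a level 4.45-fold lower in Wfdc2 GFP/GFP, which ranked 58th of 15627 genes by p. It did not pass the threshold over all genes (limma, adjusted p = 0.197; unadjusted p = 0.000719). Leaving out any of the 4 P1.5 libraries left the difference between -2.19 and -2.12, and with a pseudocount of 1 RPKM it was -1.36. Rtkn2 has an antisense neighbour, Gm16212, across 1177 bases of its span, which had 0 or 1 read in every library.

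Cav1, the main structural protein of caveolae (chr6:17306335-17341452, plus strand), was the other marker with an unadjusted p under 0.05 at P1.5. Its log2 RPKM were 4.02 and 4.78 in P1.5 Wfdc2 +/+ and 3.63 and 3.40 in P1.5 Wfdc2 GFP/GFP. The groups did not overlap, but the 2 controls were farther apart than the lower control was from the Wfdc2 GFP/GFP libraries. The difference was -0.88 (SE 0.33, 95% confidence interval -1.64 to -0.12; limma, adjusted p = 0.3995). It was -0.50 without P1.5 Wfdc2 +/+ replicate 2. Gm15581, annotated antisense across the whole of Cav1, had 3 to 91 reads in a library against 10076 to 43122 for Cav1.

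Aqp5, a water channel of the apical membrane of type I cells (chr15:99590849-99594829, plus strand), leaned the other way at P1.5. Its log2 RPKM were 6.65 and 5.40 in P1.5 Wfdc2 +/+ and 7.37 and 7.23 in P1.5 Wfdc2 GFP/GFP, again without overlap. The difference was 1.27 (SE 0.95, 95% confidence interval -0.93 to 3.48; limma, adjusted p = 0.679), which is within the spread between libraries. Ager, the receptor for advanced glycation end products, a cell-surface protein of the type I basal membrane (chr17:34597862-34600934, plus strand), overlapped between genotypes, with 10.87 and 10.06 in P1.5 Wfdc2 +/+ and 10.96 and 10.34 in P1.5 Wfdc2 GFP/GFP.

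The 5 remaining markers also overlapped between genotypes at P1.5. Hopx, a homeodomain-only cofactor without DNA binding of its own (chr5:77086443-77115161, minus strand), had 4.41 and 3.84 in the controls against 3.65 and 4.08 in Wfdc2 GFP/GFP. Pdpn, the membrane mucin-type glycoprotein podoplanin (chr4:143267431-143299564, minus strand), had 0.81 and 2.12 against 2.14 and 1.88. For each of the 5 the 2 controls were farther apart than the genotype means, by 0.57 (Hopx) to 1.31 (Pdpn) between the controls. Emp2, a tetraspan epithelial membrane protein (chr16:10281749-10313968, minus strand), had 4.11 and 5.35 against 4.69 and 4.94. Clic5, a chloride intracellular channel family protein linked to ezrin and the cortical cytoskeleton (chr17:44188572-44280168, plus strand), had 1.02 and 2.07 against 0.996 and 1.13. Akap5, a scaffold for protein kinase A (chr12:76324891-76334153, plus strand), had 3.99 and 5.23 against 4.84 and 5.04. For these 5 genes and Ager the fitted differences ran from -0.48 (Clic5, 95% confidence interval -1.35 to 0.38) to 0.55 (Pdpn, -0.60 to 1.70), and each interval reached past 1 log2 unit in at least 1 direction.

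In all, 0 of 9 markers passed an adjusted p of 0.05 at P1.5 (limma), as 0.0128% of the 15627 genes did. At an unadjusted p under 0.05 there were 2 of 9, against 10.9% of all genes, and voom on the recovered reads also called 0 of 9. In 3 of 9 the groups did not overlap (Aqp5 above, Cav1 and Rtkn2 below), against 39.4% of all genes. The median of the 9 differences was 0.09, with 5 above 0, beside a median of -0.20 over all genes tested, of which 38.8% were above 0. Of the 5, Emp2 was below 0 after quantile normalization.

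**Figure D2:**
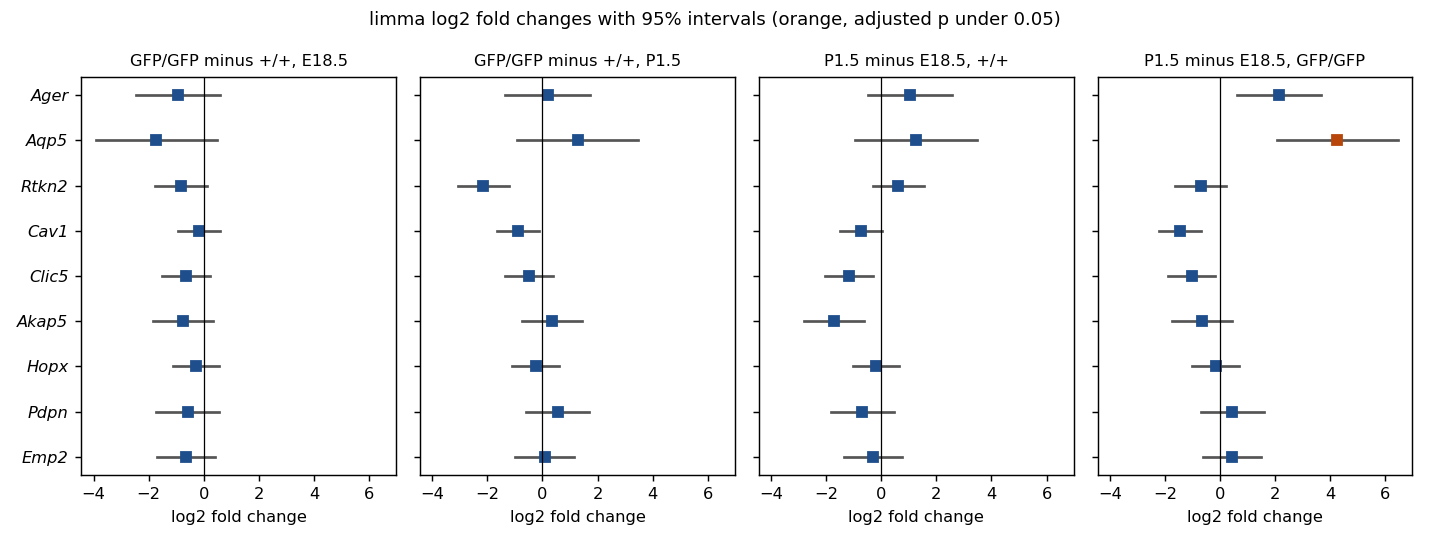
Log2 fold changes (horizontal axis) of the 9 markers with 95% confidence intervals from limma, for Wfdc2 GFP/GFP minus Wfdc2 +/+ at each stage and P1.5 minus E18.5 in each genotype (2 libraries against 2); orange marks an adjusted p under 0.05. Only Aqp5 from E18.5 to P1.5 in Wfdc2 GFP/GFP, at 4.26, is orange, and at E18.5 all 9 points are below 0.

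At E18.5 all 9 markers had a lower mean in Wfdc2 GFP/GFP than in Wfdc2 +/+, from -0.18 for Cav1 to -1.72 for Aqp5 on the log2 scale, with a median of -0.65 beside 0.09 over all genes, and the sign was the same for each after median centring and quantile normalization. None passed the test (0 of 9 at a limma adjusted p of 0.05, against 0.0192% of all genes; 0 of 9 at an unadjusted p under 0.05, against 4.37%; and 0 of 9 by voom), and every adjusted p was 0.9998. The low means came largely with E18.5 Wfdc2 GFP/GFP replicate 1. Aqp5 had 4.57 and 4.96 in E18.5 Wfdc2 +/+, then 1.36 in replicate 1 and 4.72 in replicate 2 of E18.5 Wfdc2 GFP/GFP. Ager had 9.30 and 9.58 against 7.59 and 9.42. In both genes replicate 2 lay within the range of the controls and replicate 1 far below it.

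Without that library the difference of Aqp5 was -0.04 in place of -1.72, that of Ager -0.02 in place of -0.94, that of Pdpn -0.09 in place of -0.58, and that of Rtkn2 -0.27 in place of -0.83. Emp2 went from -0.65 to -0.25, and Hopx from -0.28 to 0.09. The median of the 9 was then -0.13. Clic5, at -0.63 with and -0.64 without the library, and Cav1, at -0.18 and -0.13, hardly moved, whereas Akap5 went from -0.75 to -1.18, its other library being the lower one.

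Per library at E18.5, Clic5 had 2.67 and 2.78 in the controls against 2.11 and 2.08 in Wfdc2 GFP/GFP, Cav1 had 5.16 and 5.14 against 4.93 and 5.02, and Akap5 had 6.40 and 6.26 against 6.004 and 5.15. These genotypes did not overlap. Rtkn2, with 1.13 and 1.39 against -0.13 and 0.99, and Emp2, with 4.94 and 5.11 against 3.98 and 4.78, did not overlap either. That made 5 of 9, all below, against 36.0% of all genes without overlap and 9.46% below. Hopx, with 4.29 and 4.33 against 3.65 and 4.40, and Pdpn, with 2.04 and 2.26 against 1.08 and 2.06, overlapped between genotypes.

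**Figure D3:**
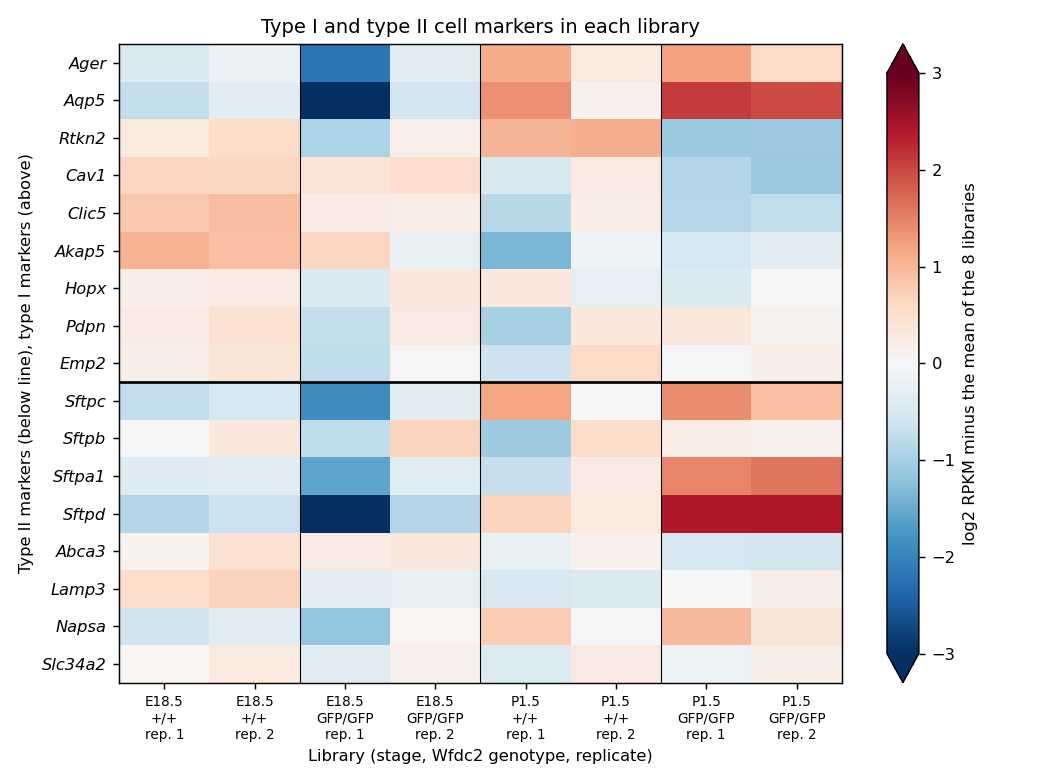
Log2 RPKM minus the mean of the 8 libraries (colour, saturated at 3 log2 units) for the 9 type I markers (above the line) and 8 type II markers (below it), 1 column per library. E18.5 Wfdc2 GFP/GFP replicate 1 is the lowest E18.5 library for 7 of 9 type I and 7 of 8 type II markers, and Rtkn2 is blue in both P1.5 Wfdc2 GFP/GFP libraries.

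The change from E18.5 to P1.5 split the markers. In Wfdc2 GFP/GFP lung, Aqp5 rose from 1.36 and 4.72 to 7.37 and 7.23 log2 RPKM, a difference of 4.26 (SE 0.95, 95% confidence interval 2.06 to 6.46; limma, adjusted p = 0.04997, just under the threshold), or 19.1-fold. It was the 1 marker of 9 past the threshold, against 4.55% of all genes, and 1.61% that rose. Without E18.5 Wfdc2 GFP/GFP replicate 1 the difference of Aqp5 was 2.58 (adjusted p = 0.196, limma), and over all alternatives its adjusted p ran from 0.0111 to 0.214. By voom on the recovered reads no marker passed in this comparison. In Wfdc2 +/+ lung Aqp5 went from 4.57 and 4.96 to 6.65 and 5.40, a difference of 1.26 (95% confidence interval -0.94 to 3.47; limma, adjusted p = 0.487).

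Ager followed a similar course. It went from 9.30 and 9.58 to 10.87 and 10.06 in Wfdc2 +/+, a difference of 1.03 (SE 0.66; limma, adjusted p = 0.451). In Wfdc2 GFP/GFP it went from 7.59 and 9.42 to 10.96 and 10.34, a difference of 2.15 (SE 0.66; limma, adjusted p = 0.0748). With 1 library left out at a time that difference ran from 1.23 to 3.06. Both P1.5 libraries lay above both E18.5 libraries in each genotype.

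Cav1, Clic5 and Akap5 lay lower at P1.5 than at E18.5 in both genotypes, with no overlap between stages. In Wfdc2 GFP/GFP, Cav1 differed by -1.46 (SE 0.33, 95% confidence interval -2.22 to -0.69; limma, adjusted p = 0.0503, just over the threshold, and from 0.0230 to 0.233 over all alternatives), a level 2.74-fold lower at P1.5. Clic5 differed by -1.03 there (limma, adjusted p = 0.0996) and Akap5 by -0.64 (limma, adjusted p = 0.347). After median centring the value of Akap5 was 0.04. In Wfdc2 +/+ the differences were -0.75 for Cav1, -1.18 for Clic5 and -1.72 for Akap5, and none of the 3 passed (limma, adjusted p = 0.424, 0.324 and 0.251). Without P1.5 Wfdc2 +/+ replicate 2 the 3 differences were -1.13, -1.70 and -2.34. Without P1.5 Wfdc2 +/+ replicate 1 they were -0.37, -0.66 and -1.10. Each of these fits leaves 1 P1.5 control library, taken to vary like the other groups.

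Rtkn2 lay higher at P1.5 than at E18.5 in Wfdc2 +/+ lung, at 1.85 and 1.91 against 1.13 and 1.39, and lower in Wfdc2 GFP/GFP lung, at -0.28 and -0.27 against -0.13 and 0.99. The differences were 0.62 (95% confidence interval -0.30 to 1.55) and -0.70 (-1.63 to 0.22), and neither passed (limma, adjusted p = 0.451 and 0.233). Stages did not overlap in either genotype. Opposite stage directions without overlap were found for Rtkn2 alone among the 9 markers, and for 5.65% of all genes. The remaining 3 markers, Hopx, Pdpn and Emp2, overlapped between stages in both genotypes, with differences between -0.69 and 0.44.

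Over the 9 markers the median change with stage was -0.30 in Wfdc2 +/+ (all genes -0.15) and -0.16 in Wfdc2 GFP/GFP (all genes -0.46). In Wfdc2 +/+, 0 of 9 passed (limma), against 0.0576% of all genes. At an unadjusted p under 0.05 there were 2 of 9, against 11.8%, and voom called 0 of 9. Stages did not overlap for 6 of 9 markers in each genotype, against 55.6% of all genes in Wfdc2 +/+ and 67.2% in Wfdc2 GFP/GFP. The E18.5 Wfdc2 GFP/GFP libraries entered both the genotype difference at E18.5 and the stage difference in Wfdc2 GFP/GFP, so a low E18.5 library lowers the first and raises the second.

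The test of the difference between genotypes across stages called 0 of 9 markers, as it called 0.0% of all genes (limma; 1 of 9 at an unadjusted p under 0.05, against 10.2%; voom 0 of 9). The largest values were 2.997 for Aqp5 (95% confidence interval -0.12 to 6.11; limma, adjusted p = 0.507) and -1.33 for Rtkn2 (-2.64 to -0.02; limma, adjusted p = 0.482). Without E18.5 Wfdc2 GFP/GFP replicate 1 the value of Aqp5 was 1.31 and that of Rtkn2 -1.88. The other 7 ran from -0.71 (Cav1) to 1.13 (Pdpn).

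The stage change moved with the span of the gene. Genes of up to 5 kb had a median of 0.64 in Wfdc2 +/+ and 0.34 in Wfdc2 GFP/GFP, whereas genes of 60 to 100 kb had -0.54 and -1.02. Ager (3.07 kb) and Aqp5 (3.98 kb) are the shortest of the 9 markers. Clic5 (91.6 kb) and Rtkn2 (80.2 kb) are the longest, and exons make up 69.7% of the span of Ager but 6.92% of that of Rtkn2. Set against genes of like span, Clic5 in Wfdc2 GFP/GFP was 0.01 below its class median, Cav1 0.59 below and Akap5 0.63 below, while Pdpn was 1.31 and Emp2 1.30 above, and Aqp5 was 3.92 above. In Wfdc2 +/+, Clic5 was 0.64, Cav1 0.32 and Akap5 1.84 below their class medians. With the libraries centred within span classes, an alternative added after the data were seen, the stage difference in Wfdc2 GFP/GFP was -0.02 for Clic5, -0.61 for Cav1 and 0.31 for Rtkn2, 3.95 for Aqp5 (limma, adjusted p = 0.0586), and the genotype difference of Rtkn2 at P1.5 was -1.85 (limma, adjusted p = 0.223). Which property of the libraries moves with span was not tested.

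**Figure D4:**
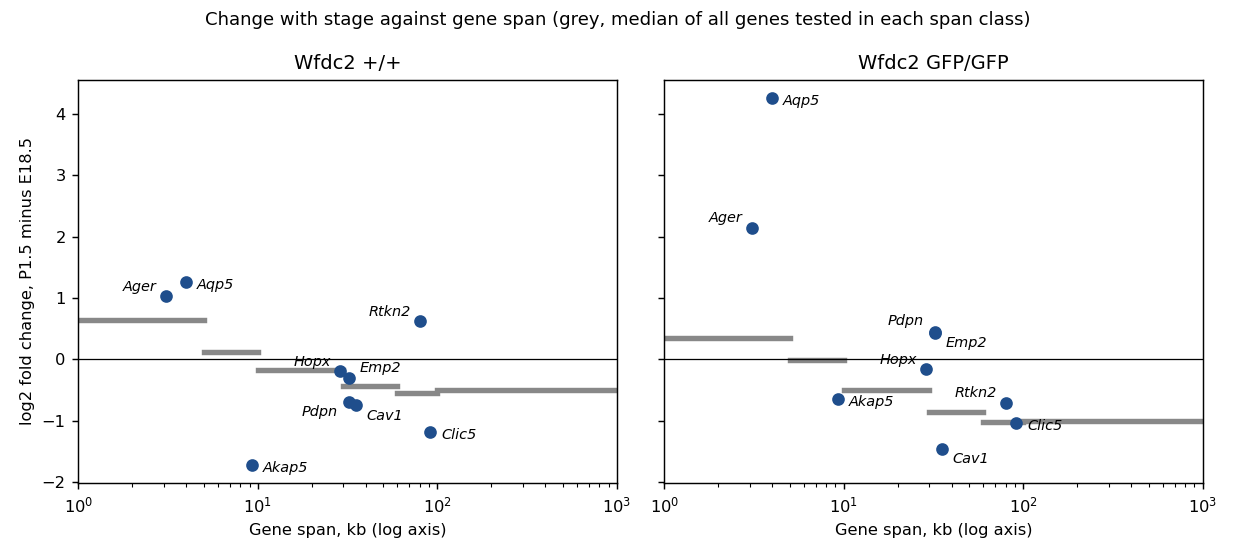
Log2 fold change from E18.5 to P1.5 (vertical axis) against gene span in kilobases (horizontal log axis) for the 9 markers (points) in each genotype; grey bars are medians of all genes tested in 6 span classes, the outermost drawn to the edges of the axis. The bars fall from 0.64 to -0.50 in Wfdc2 +/+ and from 0.34 to -1.002 in Wfdc2 GFP/GFP, with Aqp5 and Ager above and Cav1 and Akap5 below their classes in both.

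The 9 markers did not share one profile over the 8 libraries. Of their 36 pairs, 27 had a Pearson r above 0, with a median of 0.22 (8 libraries, given as a description, since all pairs share the same libraries and their depth). Ager and Aqp5 were the closest pair, at r = 0.97. Clic5 went with Cav1 (r = 0.93) and Akap5 (r = 0.88), and Emp2 with Pdpn (r = 0.89), while Cav1 and Aqp5 were the most opposed (r = -0.75). Outside the 9, the genes closest to the mean standardised profile of the markers were Jup (r = 0.96), D930014E17Rik (0.96), Epb4.1l4b (0.96), Lgals9 (0.95) and Gpr15 (0.94), over the same 8 libraries. These were picked as the highest among the 15627 genes tested, and the mean covers markers that did not share one profile. Their likeness to it was not tested.

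Promoter windows from RefSeq (GRCm38.p6) were found for 8 of the 9 markers, in 10 windows, since Hopx and Cav1 had 2 starts each, and not for Rtkn2. The 250 bases before the start are shown for Ager, the most abundant marker, and for the 3 markers that went together at lower P1.5 levels. They are chr17:34597600-34597849, chr6:17306085-17306334, chr17:44188322-44188571 and chr12:76324641-76324890, all on the plus strand and printed 5' to 3'; capitals mark the GC box GGGCGG or its complement and, in Cav1, TATAAA on the minus strand.
Ager: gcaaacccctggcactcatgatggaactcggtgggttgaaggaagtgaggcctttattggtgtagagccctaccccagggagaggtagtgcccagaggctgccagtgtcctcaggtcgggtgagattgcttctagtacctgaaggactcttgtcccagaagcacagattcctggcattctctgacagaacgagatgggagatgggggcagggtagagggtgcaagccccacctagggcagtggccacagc
Cav1: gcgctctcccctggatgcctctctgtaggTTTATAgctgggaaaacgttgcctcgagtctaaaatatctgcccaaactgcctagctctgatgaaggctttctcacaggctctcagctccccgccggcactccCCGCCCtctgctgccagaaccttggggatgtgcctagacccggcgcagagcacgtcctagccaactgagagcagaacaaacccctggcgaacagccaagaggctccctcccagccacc
Clic5: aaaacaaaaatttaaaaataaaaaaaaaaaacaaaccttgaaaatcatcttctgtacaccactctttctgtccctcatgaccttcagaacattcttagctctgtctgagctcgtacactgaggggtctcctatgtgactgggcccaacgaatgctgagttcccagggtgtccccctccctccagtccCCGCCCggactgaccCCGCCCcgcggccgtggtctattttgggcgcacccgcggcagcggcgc
Akap5: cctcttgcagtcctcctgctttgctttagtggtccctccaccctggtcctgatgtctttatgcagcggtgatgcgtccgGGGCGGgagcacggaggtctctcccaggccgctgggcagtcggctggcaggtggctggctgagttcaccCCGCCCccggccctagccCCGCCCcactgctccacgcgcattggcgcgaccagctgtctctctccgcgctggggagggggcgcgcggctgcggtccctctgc
The GC box was found on either strand in 5 of the 10 windows of the markers (Akap5, Aqp5, Cav1, Clic5 and Emp2), and in 32.7% of 32851 windows of all genes. Ager, without the box, and Aqp5, with it and not printed, were the closest pair over the libraries (r = 0.97). None of the 10 held the TEAD motif GGAATG, found in 12.6% of all windows, the NK2-class motif CAAGTG, found in 11.6%, or the AP-1 motif TGANTCA, found in 6.75%. The FOXA motif TGTTTAC was in the window of Pdpn (3.17% of all windows) and TATAAA in that of Cav1 (12.4%). These are matches of letters in short windows and were not tested against the expression values.

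Other genes expressed in type I cells gave no call between genotypes. Of 19 such genes tested, 0 passed at either stage, and the medians were -0.13 at P1.5 and -0.23 at E18.5. From E18.5 to P1.5 in Wfdc2 GFP/GFP, 1 of 19 passed, against 4.55% of all genes. Icam1, a leukocyte adhesion molecule found on type I cells, rose by 1.55 (limma, adjusted p = 0.0490), and the other 18 did not pass. The largest of those were Krt7, a simple-epithelial keratin, at 1.74, Spock2, a matrix proteoglycan, at 1.71, Agrn, a basement membrane proteoglycan, at -1.45, and Vegfa, the endothelial growth factor, at -1.25. The list had 11 of 19 above 0 there, with a median of 0.10, and of 0.28 without E18.5 Wfdc2 GFP/GFP replicate 1.

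Partners of Cav1 in caveolae were measured by 5 genes, and 0 of 5 passed in any comparison. Cav2, the partner of Cav1 in the caveolar coat, was at -1.01 between genotypes at P1.5, and at -1.06 and -1.39 with stage in Wfdc2 +/+ and Wfdc2 GFP/GFP (limma, adjusted p = 0.343, 0.300 and 0.0506), where Cav1 was at -0.88, -0.75 and -1.46. Between genotypes at E18.5 Cav2 was at -0.68 and Cav1 at -0.18, and neither passed. Prkcdbp, a cavin, went the other way with stage, at 1.004 and 1.89, and was at 0.23 between genotypes at P1.5. Ptrf was at 0.74 between genotypes at P1.5, and at -0.38 and 0.76 with stage in Wfdc2 +/+ and Wfdc2 GFP/GFP. Of the 5 genes, 2 were above 0 and 3 below between genotypes at P1.5, and the same held with stage in Wfdc2 GFP/GFP. Among 12 relatives of the markers from the same families, 1 passed with stage in Wfdc2 GFP/GFP, against 4.55% of all genes. Aqp3, a water and glycerol channel of airway basal cells, rose there by 3.08 (limma, adjusted p = 0.0210), while Aqp4 was at -2.54 without passing. At P1.5 the genotype difference of Aqp3 was 2.72, which did not pass (limma, adjusted p = 0.152).

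Of 4 ligands of the receptor encoded by Ager, 2 passed with stage in Wfdc2 GFP/GFP, against 4.55% of all genes. S100a8 and S100a9, calcium-binding proteins carried mainly by neutrophils, rose there by 4.17 and 4.85 (limma, adjusted p = 0.0320 and 0.0189). In Wfdc2 +/+ they were at 3.93 and 3.61 and did not pass. Neither passed between genotypes at either stage, with 0 of 4 ligands called. Hmgb1 and S100b did not pass in any comparison.

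Genes of the Hippo pathway with its effectors YAP and TAZ, which act in type I differentiation, gave 0 calls of 12 in every comparison. With stage in Wfdc2 GFP/GFP, 10 of 12 were below 0, with a median of -0.97 and a lowest adjusted p of 0.0514 (limma). The largest values were 2.04 for Cyr61, a target gene, and -1.44 for Tead3, a DNA-binding partner. After centring within span classes the median was -0.02.

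Of 10 transcription factors of the distal epithelium, 4 passed with stage in Wfdc2 GFP/GFP, against 4.55% of all genes, and all 4 fell: Klf5, a zinc-finger factor of epithelium, by 3.56, Sox9, a factor of the distal tip progenitors, by 2.52, Grhl2, a regulator of epithelial junctions, by 2.37 and Foxa1, a forkhead factor of lung epithelium, by 1.64 (limma, adjusted p = 0.0427, 0.0390, 0.0465 and 0.0432). None of the 4 passed in Wfdc2 +/+. The median stage change of the 10 in Wfdc2 GFP/GFP was -1.21, and -1.07 without E18.5 Wfdc2 GFP/GFP replicate 1. That second fit leaves 1 library in the group, so calls with and without the library cannot be compared.

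Markers of other cells were read beside these results. Type II markers had a median genotype difference of 0.49 at P1.5 and -0.40 at E18.5, and 0 of 8 passed. Their summed level was 8304 to 17494 RPKM in P1.5 Wfdc2 +/+ and 15320 to 21068 RPKM in P1.5 Wfdc2 GFP/GFP. Most of each sum was Sftpc, at 7634 to 17102 and 14046 to 19846 RPKM. With stage in Wfdc2 GFP/GFP, 2 of 8 passed, against 4.55% of all genes, the surfactant proteins Sftpd at 4.53 and Sftpa1 at 2.50 (limma, adjusted p = 0.0316 and 0.0459). In E18.5 Wfdc2 GFP/GFP these were at 2.08 and 6.44 log2 RPKM in replicate 1 and at 4.57 and 7.67 in replicate 2. Without that replicate 1 the median stage change of the 8 was 0.47 in place of 0.78. Blood endothelial markers, of interest beside Cav1, were above 0 between genotypes at P1.5 for 9 of 10, with a median of 0.27 where Cav1 was at -0.88, and 0 of 10 passed. Among the 9, Cdh5 at 3.8e-05, Tek at 0.02 and Kdr at 0.03 showed almost no difference. P1.5 Wfdc2 +/+ replicate 1 was the lowest P1.5 library for 9 of the 10. The summed level of the list at P1.5 was 373 to 502 RPKM in Wfdc2 +/+ and 654 to 866 RPKM in Wfdc2 GFP/GFP, with no marker of the list at 0 reads in any library. Lymphatic markers, beside Pdpn, had medians of -0.22 at P1.5 and -0.27 at E18.5, and mesothelial markers -0.65 and -0.39, with 0 of 4 passing in each. Cardiac markers, beside Hopx, summed to 23.0 to 55.7 RPKM in E18.5 Wfdc2 +/+ and to 30.5 to 212 RPKM in E18.5 Wfdc2 GFP/GFP. Nppa alone was at 117 RPKM in replicate 2 of E18.5 Wfdc2 GFP/GFP, with 4661 reads against 1 in replicate 1. At P1.5 the cardiac sums were 51.9 to 121 RPKM in Wfdc2 +/+ and 119 to 157 RPKM in Wfdc2 GFP/GFP. Between genotypes 0 of 6 cardiac markers passed at either stage. Airway markers, beside Aqp5, had medians of -0.37 at P1.5 and -0.56 at E18.5, with 0 of 4 passing. With stage in Wfdc2 GFP/GFP 1 of 4 passed, Scgb1a1, which rose by 5.27 (limma, adjusted p = 0.0459), and which was at 3.31 without passing in Wfdc2 +/+. The summed level of the airway list was 181 to 651 RPKM in E18.5 Wfdc2 GFP/GFP and 2125 to 2414 RPKM in P1.5 Wfdc2 GFP/GFP. Fibroblast markers were below 0 between genotypes at P1.5 for 5 of 5, with a median of -0.54 and none passing, and with stage in Wfdc2 GFP/GFP 1 of 5 passed, Pdgfra, which fell by 2.22 (limma, adjusted p = 0.0461). In the same comparison 1 of 3 smooth muscle markers passed, Tagln, an actin-binding protein, which rose by 2.41 (limma, adjusted p = 0.0425), and 1 of 3 leukocyte markers, Cd79a of the B-cell receptor, which rose by 4.05 (limma, adjusted p = 0.0390). A fit without E18.5 Wfdc2 GFP/GFP replicate 1 leaves 1 library in that group, so calls with and without it cannot be compared. Without that library the median stage changes in Wfdc2 GFP/GFP were 0.22 for airway, -1.10 for fibroblast, -0.01 for smooth muscle and 1.82 for leukocyte markers. With it they were 0.83, -1.42, 0.21 and 1.55. Of 3 erythroid markers 0 passed, with medians of 0.52 between genotypes at P1.5 and -1.33 at E18.5, and of 4 general epithelial markers 0 passed, with medians of 0.79 and -0.08. The part of these cells in the values of the type I markers was not tested.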

How the data were processed

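Whole-lung RNA libraries from 8 mice were prepared with a directional kit and sequenced on either of 2 Illumina instruments. Which library ran on which is not given in the sources used here, so the instrument could not be entered as a batch. Per the labels and the study's methods, the authors called bases with CASAVA 1.8, trimmed reads with Trim Galore 0.4.0, mapped them to mm10 with TopHat2 2.1.1, used SeqMonk to quantify genes, and the deposited unit is log2 RPKM. The counting strand setting and whether intronic reads were counted were not given in the sources used here. A gene with no read was entered as 0.9 read. Whole reads were recovered from the steps of the values (99.86% to 99.97% within 0.02 of a whole number).

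Groups came from the labels' stage and genotype. Log2 RPKM without a pseudocount were fitted for 15627 genes (mean of at least 0.05 RPKM) with limma 3.58.1 (R 4.3.3), each group having its own mean, which left 4 residual degrees of freedom, and a trended prior. P-values are two-sided and adjusted by the Benjamini-Hochberg method over all genes tested. With 2 libraries a group, the smallest p of an exact permutation test is 0.33, and no such test was run. The fit was tested on simulated data. Positions are those deposited. Exon lengths come from GENCODE M21 and promoter sequences from RefSeq. Tables and figures used Python 3.11.15, pandas 2.3.3 and matplotlib 3.10.9. Alternatives were pseudocounts of 0.1 and 1 RPKM, no filter or a mean of 0.5 RPKM, quantile normalization, median centring, fits to the contrast's own libraries, replicate blocks, other priors, an adjusted p under 0.1, voom, each library left out and, added after seeing the data, centring within span classes.

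The 9 markers and the other gene lists were chosen with earlier results of these data known. All 9 markers are named. From the other lists, genes past the threshold in any contrast are named, with up to 4 more of the largest changes in the contrast described, and the 5 genes most like the mean marker profile. Choices outside this rule, among them the sex-linked and antisense genes, were made after values were seen. Protein sequences and the other assays of the study were not analysed here.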

Additional observations from a re-analysis of the deposited data

Results flagged for a closer look

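Rtkn2 changed sides between the genotypes from E18.5 to P1.5: both P1.5 libraries were above both E18.5 libraries in Wfdc2 +/+ and below them in Wfdc2 GFP/GFP. The difference between the 2 changes was -1.33 on the log2 scale (SE 0.57), with an unadjusted p of 0.0479 and an adjusted p of 0.482 (limma), so it did not pass over all genes. It ranged from -0.77 without E18.5 Wfdc2 GFP/GFP replicate 2 to -1.88 without E18.5 Wfdc2 GFP/GFP replicate 1, and was -0.72 after quantile normalization and -0.85 after centring within span classes. With that centring, added after the data were seen, the stage change of Rtkn2 was 1.16 in Wfdc2 +/+ and 0.31 in Wfdc2 GFP/GFP, so that both were above 0 and the change of sides was gone. Opposite directions without overlap were found for 883 of 15627 genes. Groups of 2 are too small for a test of outlying libraries.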

How the results depend on the processing

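Over 14 alternative settings and 8 fits that each left out 1 library, single markers kept their direction and their side of the threshold in 596 and 191 comparisons and changed direction in 8 and 18. The call of 1 marker with stage in Wfdc2 GFP/GFP became 0 with a pseudocount of 1 RPKM, no filter, a prior without a trend, a robust prior, voom on recovered reads or centring within span classes, 2 with a mean of at least 0.5 RPKM or the libraries of the contrast alone, and 4 at an adjusted p under 0.1. The median of the markers there was 0.52 after median centring and 0.31 after centring within span classes. Changes of sign were all in values that did not pass: Emp2 at P1.5 was -0.10 and Hopx by stage -0.0867 after quantile normalization, Hopx with stage was 0.0768 in Wfdc2 +/+ and 0.52 in Wfdc2 GFP/GFP and Akap5 0.0367 there after median centring, and after centring within span classes Emp2 was 0.13 in Wfdc2 +/+, and Hopx 0.31 and Rtkn2 0.31 in Wfdc2 GFP/GFP. The causes were not tested.

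With 1 library left out at a time, the number of markers past the threshold ran from 0 to 3 with stage in Wfdc2 +/+ and from 0 to 2 in Wfdc2 GFP/GFP, and was 0 throughout for the genotype comparisons. The median ran from -1.05 to -0.13 for genotype at E18.5, from 0.20 to 0.82 for genotype by stage and from -0.91 to -0.0338 for stage in Wfdc2 +/+. Markers whose sign turned ran, for genotype at P1.5, from -0.22 to 0.59 (Ager), -0.54 to 0.0300 (Hopx), -0.10 to 1.204 (Pdpn), -1.01 to 0.0403 (Clic5), -0.29 to 0.95 (Akap5) and -0.53 to 0.70 (Emp2). Hopx at E18.5 ran from -0.66 to 0.0945. By stage, Hopx ran from -0.35 to 0.41 and Clic5 from -0.38 to 0.67. With stage in Wfdc2 +/+, Hopx ran from -0.47 to 0.0948 and Emp2 from -0.91 to 0.32. In Wfdc2 GFP/GFP, Hopx ran from -0.54 to 0.22 and Pdpn from -0.0481 to 0.93.

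Replicate numbers are not stated to mark littermates or a shared day. They did go with the sex-linked transcripts in every group, so a replicate block also separates libraries with high Xist from those with low Xist. Deviations of same-numbered libraries correlated at 0.23 and 0.21 within the stages and between -0.29 and 0.08 across them, so the numbers were not taken as pairs. With the replicate block 0 markers passed with stage in Wfdc2 GFP/GFP, and with the replicate block within stage 4 did (Aqp5, Ager, Cav1 and Clic5). The block changed no other call of a marker. With 2 libraries a group, differences of the size seen for most markers could not be told from 0.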
